A study of Mus musculus with 6 samples.

Results

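The genes described are Pomt1, Pomt2, Pomgnt1, B4gat1 and Gmppb, enzymes on the route that puts the laminin-binding glycan, matriglycan, on alpha-dystroglycan. They were chosen by symbol in the count table, and all 5 were found among its 27179 genes and passed the filter on low counts. RNA came from C2C12 cells, an established mouse myoblast line that fuses into multinucleated myotubes when serum is lowered. Myoblasts (3 libraries) grew below confluence in high-glucose medium with 10% fetal bovine serum. For the 3 myotube libraries, cultures stood at 100% confluence during 3 days before 5 days of high-glucose medium with 2% horse serum and added insulin, transferrin, selenium and ethanolamine. Both media held 4 mM glutamine, and no label names a genetic change or a drug in either group. Serum, the supplement, cell density and differentiation differ together between the groups and cannot be told apart. Since no label tells of separate cultures, a p-value here reflects just the spread of these libraries, which may be technical.

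Alpha-dystroglycan is the outer part of dystroglycan, which ties the laminins outside a muscle fibre to dystrophin inside it. POMT1 and POMT2 act as a complex in the endoplasmic reticulum and move mannose from dolichol-phosphate mannose to serine or threonine, a donor that depends on the GDP-mannose made by GMPPB. POMGNT1 adds N-acetylglucosamine to the mannose in the Golgi, on the branch called core M1, and its loss also leaves the matriglycan branch, core M3, unfinished. On core M3 a longer chain is built, and B4GAT1 adds a glucuronic acid to its xylose, the primer from which matriglycan is extended. Loss of any of these enzymes causes a muscular dystrophy of the dystroglycanopathy group.

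Library totals were 10076945 to 11723881 counts in myoblasts and 7370169 to 8339589 in myotubes. Markers were read in both groups. All 7 myotube markers, among them Myog and Ckm, were called higher in myotubes, and their summed level was 66.8 to 83.6 counts per 1000000 (CPM) in myoblasts and 13437 to 14058 CPM in myotubes. All 4 markers of cycling cells were called lower, from a sum of 1390 to 1408 CPM to one of 92.5 to 103 CPM. The 6 myoblast markers did not fall as a list: Myod1, Myf5 and Cdh15 were called lower, by at most 0.16 on the log2 scale, Des and Itga7 were called higher, Pax7 was not called, and their sum was 2586 to 2665 CPM in myoblasts and 5153 to 5348 CPM in myotubes. All markers of adipocytes (4), bone-forming cells (3) and endothelium (3) stayed under 1 CPM in every library. Of 5 fibroblast markers, Lum and Thy1 stayed under 1 CPM in every library, while the summed list was 333 to 347 CPM in myoblasts and 1623 to 1917 CPM in myotubes, 2 members being called higher and 1 lower. Of the macrophage and leukocyte markers, Ptprc and Adgre1 stayed under 1 CPM and Cd68 was not called. Of the Schwann cell and neuron markers, Sox10 was at 0 in every library, and Tubb3 fell from a mean of 241 to one of 35.2 CPM. The part of these lists in the results below was not tested. Myotube libraries 1 and 3 differed most, with a gene-wide chi-square of 3.33 per degree of freedom against 1.37 to 2.16 for other replicate pairs.

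The 5 genes lie on 5 chromosomes of the mouse assembly GRCm38, in RefSeq coordinates, and their counts cover annotated exons. Pomt1 (Entrez gene 99011) is on chromosome 2 at 32236590 to 32255005, Pomt2 (217734) on chromosome 12 at 87106861 to 87147968 and Pomgnt1 (68273) on chromosome 4 at 116150498 to 116159844. B4gat1 (108902), which spans 2309 bases, is on chromosome 19 at 5038826 to 5041134. Gmppb (331026) is on chromosome 9 at 108049239 to 108051923. RefSeq's promoter table for GRCm38.p6 held 4 of the 5, and their upstream bases are shown as a description. Any part of these bases in the changes below was not tested. Each run is 5′ to 3′ on the gene's strand, without bases inside annotated coding-gene exons, and capitals mark CANNTG, the general E-box pattern. Pomt1 is chr2:32236390-32236589 (+ strand), Pomt2 chr12:87147969-87148152 (- strand), Pomgnt1 chr4:116150268-116150497 (+) and B4gat1 chr19:5038576-5038825 (+).
Pomt1: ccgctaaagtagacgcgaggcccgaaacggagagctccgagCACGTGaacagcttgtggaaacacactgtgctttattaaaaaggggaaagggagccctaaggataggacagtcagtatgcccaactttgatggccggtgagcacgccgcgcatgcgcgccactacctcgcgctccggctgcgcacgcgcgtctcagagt
Pomt2: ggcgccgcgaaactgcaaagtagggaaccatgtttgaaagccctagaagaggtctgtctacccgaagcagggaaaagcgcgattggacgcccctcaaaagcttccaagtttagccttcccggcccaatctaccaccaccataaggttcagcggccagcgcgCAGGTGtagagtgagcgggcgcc
Pomgnt1: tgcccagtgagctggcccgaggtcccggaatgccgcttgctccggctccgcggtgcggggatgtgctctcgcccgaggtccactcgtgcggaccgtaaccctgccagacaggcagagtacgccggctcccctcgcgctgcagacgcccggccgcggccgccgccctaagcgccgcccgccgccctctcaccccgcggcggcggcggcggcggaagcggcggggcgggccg
B4gat1: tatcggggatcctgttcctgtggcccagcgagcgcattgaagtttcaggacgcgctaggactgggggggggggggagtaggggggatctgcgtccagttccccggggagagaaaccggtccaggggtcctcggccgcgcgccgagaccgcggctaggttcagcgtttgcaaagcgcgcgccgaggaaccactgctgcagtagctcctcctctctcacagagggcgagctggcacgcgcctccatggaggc
In the full 250 bases before the listed start there were 27 CpG for Pomt1, 22 for Pomt2, 41 for the first start listed for Pomgnt1 and 23 for B4gat1, against a median of 6 over the 32851 promoters of the table. Both POMT genes held 1 CANNTG on either strand, in the form CACGTG for Pomt1 and CAGGTG for Pomt2, while the first start of Pomgnt1 and B4gat1 held none. The window of the second start listed for Pomgnt1, not printed here, held 1 CACGTG and only 3 CpG. CANNTG was found in 66.2% of all promoters of that length, and CACGTG, which is among its forms, in 6.02%. A match is a description of the letters in this window only.

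The 5 genes split into those higher in myotubes, Pomgnt1 and B4gat1, those lower, Pomt1 and Gmppb, and Pomt2, which was not called. Of all 12800 genes tested, 79.5% were called in either direction in edgeR's quasi-likelihood F test (Benjamini-Hochberg adjusted p under 0.05), 40.2% higher and 39.2% lower. The members, with 2 called higher and 2 lower of 5, are near that share, so the count is no result about them. Their changes were also of common size. The largest, that of Pomt1, was 1.54-fold, and 53.9% of genes tested had a smaller absolute log2 change. The median log2 change of the members was 0.00, beside 0.02 over all genes tested. In bulk RNA, fewer cells of a type and less RNA per cell cannot be told apart.

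**Figure D1:**
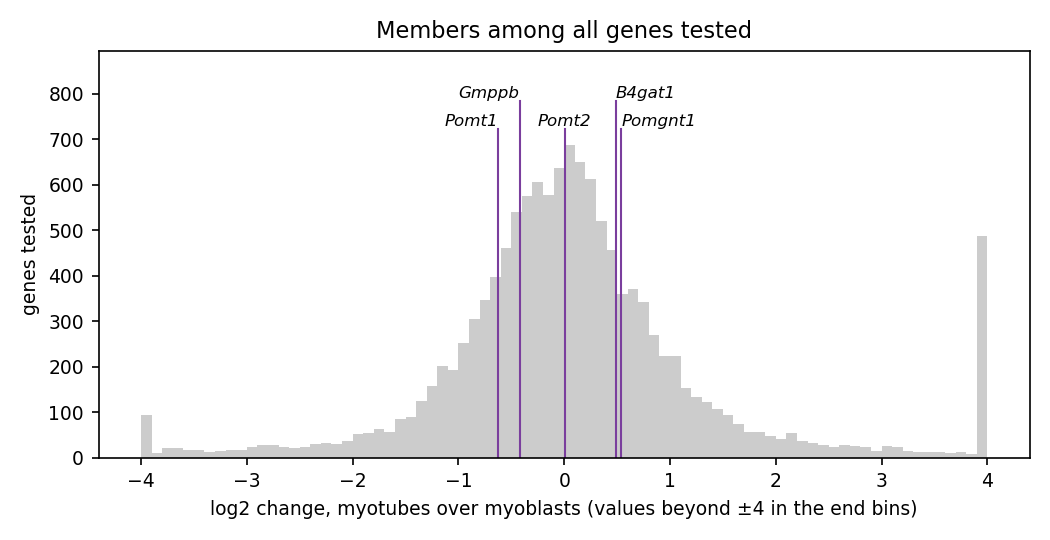
Histogram of the log2 change (myotubes over myoblasts, x axis) of all 12800 genes tested, with the number of genes on the y axis and the 5 members as vertical lines. Pomt1 at -0.63 and Pomgnt1 at 0.54 are the outermost members, and all 5 lie within the central bulk of genes.

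The mannose-transferring complex came first. Pomt1 had 34.4, 38.5 and 37.5 CPM in myoblast libraries 1, 2 and 3 and 24.0, 21.9 and 25.5 CPM in myotube libraries 1, 2 and 3. Every myotube library lay below every myoblast library. Pomt1 fell from 36.8 ± 2.11 to 23.8 ± 1.80 CPM (SD, n = 3), a log2 change of -0.63 (SE 0.08, 95% interval -0.80 to -0.46, adjusted p = 1.57e-07 by edgeR). The spread between libraries was close to counting error: the coefficient of variation was 5.73% in myoblasts and 7.57% in myotubes, where counting alone gives 4.89% and 7.51%.

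Pomt2, whose product is the obligate partner of POMT1, had 38.8, 42.3 and 41.4 CPM in the myoblast libraries and 39.2, 39.5 and 44.0 CPM in the myotube libraries. The ranges overlapped, with myotube library 3 the highest of all 6. The means were 40.8 ± 1.79 and 40.9 ± 2.65 CPM (SD, n = 3), and the log2 change was 0.00 (SE 0.07, 95% interval -0.14 to 0.15, adjusted p = 0.950 by edgeR). That interval excludes a fall as large as that of Pomt1. Scaling by total counts, which moved the median of all genes from 0.02 to -0.13, gave Pomt2 a log2 change of -0.14 (adjusted p = 0.0663), so its direction is not settled.

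Pomgnt1, the N-acetylglucosamine transferase of core M1, was the most abundant member. It had 95.4, 98.2 and 94.3 CPM in myoblasts and 131, 137 and 151 CPM in myotubes, with no overlap between groups. The means were 96.0 ± 2.01 and 140 ± 10.2 CPM (SD, n = 3), a 1.45-fold rise whose log2 change was 0.54 (SE 0.05, 95% interval 0.43 to 0.65, adjusted p = 6.06e-10 by edgeR). The myotube libraries spread more than counting gives, with a coefficient of variation of 7.31% against 3.10%, and library 3 was the highest. Without that library the log2 change was 0.48 (adjusted p = 1.84e-10).

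B4gat1, whose product makes the primer of matriglycan, had 41.1, 44.2 and 40.5 CPM in myoblasts and 58.1, 57.0 and 61.5 CPM in myotubes. Again the groups did not overlap. The means were 41.9 ± 2.00 and 58.9 ± 2.37 CPM (SD, n = 3), a 1.40-fold rise whose log2 change was 0.49 (SE 0.06, 95% interval 0.36 to 0.62, adjusted p = 1.37e-07 by edgeR). Its coefficient of variation was 4.78% in myoblasts and 4.02% in myotubes, where counting alone gives 4.58% and 4.78%.

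Gmppb, the GDP-mannose pyrophosphorylase, was the least abundant member and the least precise. It had 19.3, 22.4 and 18.7 CPM in myoblasts and 15.6, 16.5 and 13.3 CPM in myotubes, from 198 to 275 and from 105 to 122 counts per library. The groups did not overlap, with myotube library 2 nearest to the myoblasts. Gmppb fell from a mean of 20.1 ± 1.97 CPM to one of 15.1 ± 1.67 (SD, n = 3), and its log2 change was -0.42 (SE 0.11, 95% interval -0.65 to -0.19, adjusted p = 0.00119 by edgeR). Its log2 change was -0.33 when myoblast library 2 was left out (adjusted p = 0.0160) and also when myotube library 3 was (adjusted p = 0.0112). For 4 of the 5 members, as for 80.5% of all genes tested (40.6% higher and 39.9% lower in myotubes), the groups did not overlap.

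**Figure D2:**
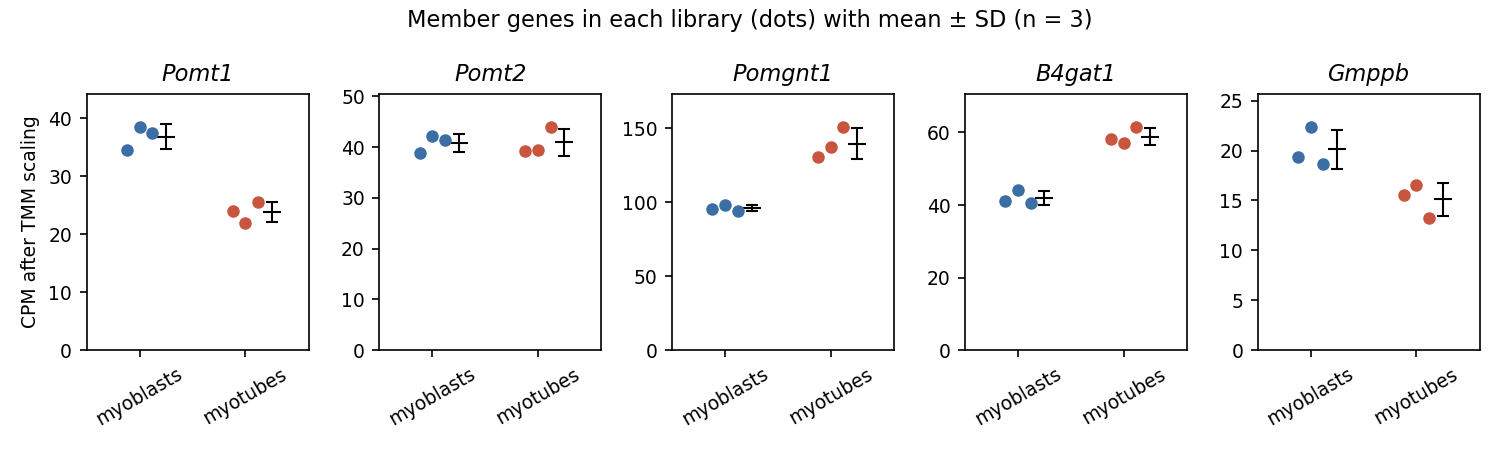
CPM after TMM scaling (y axis, from 0, a scale of its own for each gene) of the 5 members in the 3 myoblast (blue) and 3 myotube (red) libraries, with mean ± SD beside the dots. Myotube dots lie below myoblast dots for Pomt1 and Gmppb, above them for Pomgnt1 and B4gat1, and among them for Pomt2.

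Several members share exonic bases with a gene on the opposite strand. The libraries were made with a stranded kit, but whether counting used strand is not stated in what was available here, so reads of such pairs may not have been told apart. Gmppb shares most: 937 of its 2785 exonic bases in GENCODE (33.6%) overlap Rnf123, a ubiquitin ligase gene that rose from 40.9 ± 2.53 to 84.8 ± 5.40 CPM (log2 change 1.049, SE 0.06), opposite to Gmppb. By RefSeq positions Gmppb and Rnf123 overlap by only 252 bases, and the annotation used for counting is not stated. In GENCODE, Pomgnt1 shares 641 bases (11.7%) with Lurap1, which went from 4.33 ± 0.237 to 9.84 ± 0.599 CPM, but their RefSeq positions do not overlap. Pomt2 shares 465 bases (5.85%) with Gstz1, of tyrosine breakdown, whose start lies 807 bases from that of Pomt2 on the other strand and which rose by 0.80 on the log2 scale (SE 0.07). Pomt1 shares only 4 bases with Uck1, a uridine kinase gene (log2 change -0.22, adjusted p = 0.0415 by edgeR), a call lost under 7 of the 14 other settings, whose adjusted p spanned 0.00124 to 0.158. Leaving out myoblast library 1 or 2 gave Uck1 an adjusted p of 0.0850 or 0.149, and leaving out myotube library 1 or 2 one of 0.0723 or 0.158. On its own strand, B4gat1 shares 85.4% of its 50-base windows with AC124502.3, another GENCODE gene model. Whether counting included that model is not stated, so any effect on the counts of B4gat1 is unknown. Brms1, whose start lies 2537 bases from that of B4gat1, fell by 0.52 (SE 0.08), the opposite direction to B4gat1. Amigo3, near Gmppb, fell by 0.84 (SE 0.24), and Ngb, near Pomt2, was not tested. The part of these neighbours in the members' values was not tested.

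Levels of different genes were compared per length, as CPM per kilobase of the longest GENCODE transcript. In myoblasts the order was Pomgnt1 (27.8 ± 0.583 CPM per kb), B4gat1 (18.9 ± 0.901), Pomt1 (11.01 ± 0.631), Pomt2 (8.06 ± 0.353) and Gmppb (7.44 ± 0.731; SD, n = 3 each). Of the neighbours in that order, Pomt2 and Gmppb overlapped, at 7.67 to 8.35 and 6.90 to 8.27 CPM per kb, and the others did not. In myotubes Pomgnt1 (40.5 ± 2.96 CPM per kb) and B4gat1 (26.5 ± 1.06) again led, and Pomt2 (8.08 ± 0.522) now stood above Pomt1 (7.13 ± 0.539). Those POMT genes did not overlap, at 7.75 to 8.68 and 6.56 to 7.64 CPM per kb, and Gmppb was last at 5.59 ± 0.618. Against all tested genes with a length, Pomgnt1 ranked at percentile 79.4 in myoblasts and 85.6 in myotubes, and Gmppb at 40.5 and 33.4. The order depends on the length used: with the total of all annotated exons, B4gat1 (18.2 ± 0.869 CPM per kb) and Pomgnt1 (17.6 ± 0.368) were level in myoblasts, and Gmppb (7.22 ± 0.709) stood above Pomt1 (5.71 ± 0.327) and Pomt2 (5.13 ± 0.225).

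Summed over the members, the level was 71.3, 76.5 and 71.9 CPM per kb in myoblasts and 84.7, 85.9 and 92.6 in myotubes. Pomgnt1 made up 38.04% ± 0.804 of the sum in myoblasts and 46.1% ± 1.24 in myotubes (SD, n = 3). The share of Pomt1 was 15.04% ± 0.581 in myoblasts and 8.12% ± 0.428 in myotubes, and that of Gmppb 10.2% ± 0.613 and 6.40% ± 0.969. Every myotube library had the higher sum and the smaller shares of Pomt1 and Gmppb. The sum and the shares use the longest transcript and, like the order above, depend on the length used.

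**Figure D3:**
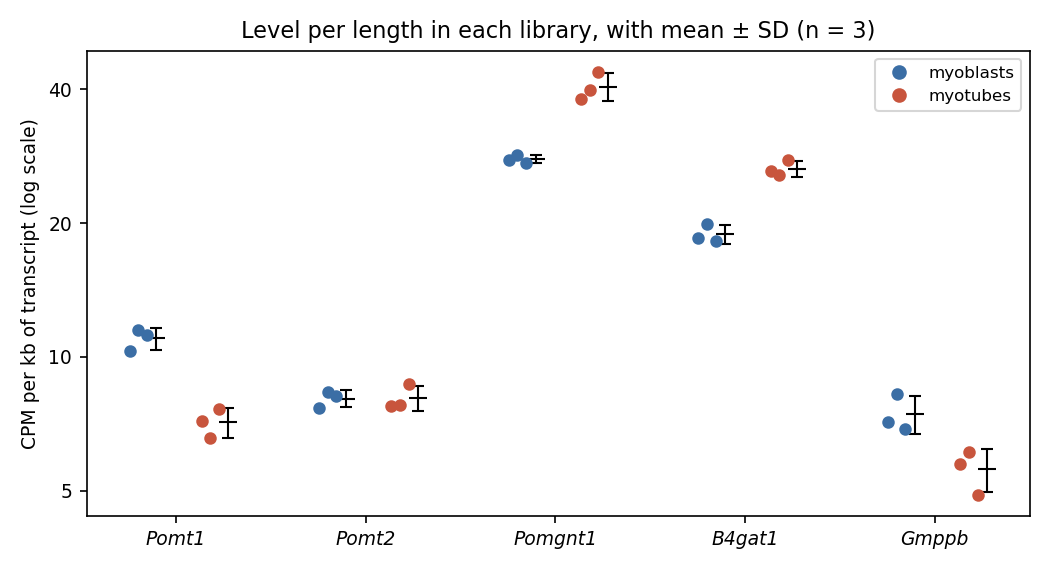
Level per length (y axis, CPM per kb of the longest transcript, log scale) of each member in the 3 myoblast (blue) and 3 myotube (red) libraries, with mean ± SD. Pomgnt1 and B4gat1 lie above the other 3 members in every library, and Pomt1 and Pomt2 exchange places between the groups.

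Within a library, the ratio of partner genes does not depend on scaling. The log2 ratio of Pomt1 over Pomt2 per length was 0.43, 0.46 and 0.46 in myoblasts, against -0.11, -0.25 and -0.18 in myotubes. Its mean went from 0.45 ± 0.02 to -0.18 ± 0.07 (SD, n = 3), a difference of -0.63, with no overlap. With total exon length the group means were 0.15 and -0.48, of the same signs and the same difference.

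Gmppb was also compared with Gmppa, a relative that lacks catalytic activity of its own and acts as a feedback inhibitor of GMPPB. Gmppa went the other way, with means of 37.3 ± 1.57 and 45.0 ± 1.497 CPM; its log2 change of 0.27 (SE 0.07, adjusted p = 0.000841 by edgeR) was not called with scaling by total counts (adjusted p = 0.1002, the highest of 14 alternatives, the lowest being 0.000654). The log2 ratio of Gmppb over Gmppa was -1.56, -1.46 and -1.69 in myoblasts and -2.20, -2.17 and -2.39 in myotubes, a difference of -0.68. Every myotube library had the lower ratio.

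Pomgnt1 was set against Pomgnt2, which adds N-acetylglucosamine on core M3. Pomgnt2 was scarce, at 4.02 ± 0.293 CPM in myoblasts and 2.72 ± 0.429 CPM in myotubes (log2 change -0.56, SE 0.22, adjusted p = 0.0237 by edgeR). Under 5 of the 14 other settings it was not called, and their adjusted p spanned 0.00523 to 0.105. The DESeq2 Wald test gave Pomgnt2 0.0985, leaving out myoblast library 2 or 3 gave 0.0645 or 0.0509, and leaving out myotube library 1 or 2 gave 0.0524 or 0.105. The log2 ratio of Pomgnt1 over Pomgnt2 was 4.12 ± 0.10 in myoblasts and 5.23 ± 0.18 in myotubes, a difference of 1.11. Per length of the longest transcripts, the excess of Pomgnt1 thus grew 2.16-fold from 17.4-fold. The level of this ratio, and of Gmppb over Gmppa, depends on the length used, but the difference between groups does not.

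In each of these 3 ratios the exact two-sided permutation test gave p = 0.1, and 0.1 after adjustment over the 4 ratios computed, 1 of which is not reported, the lowest value possible with 3 libraries a group, so none can pass 0.05.

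**Figure D4:**
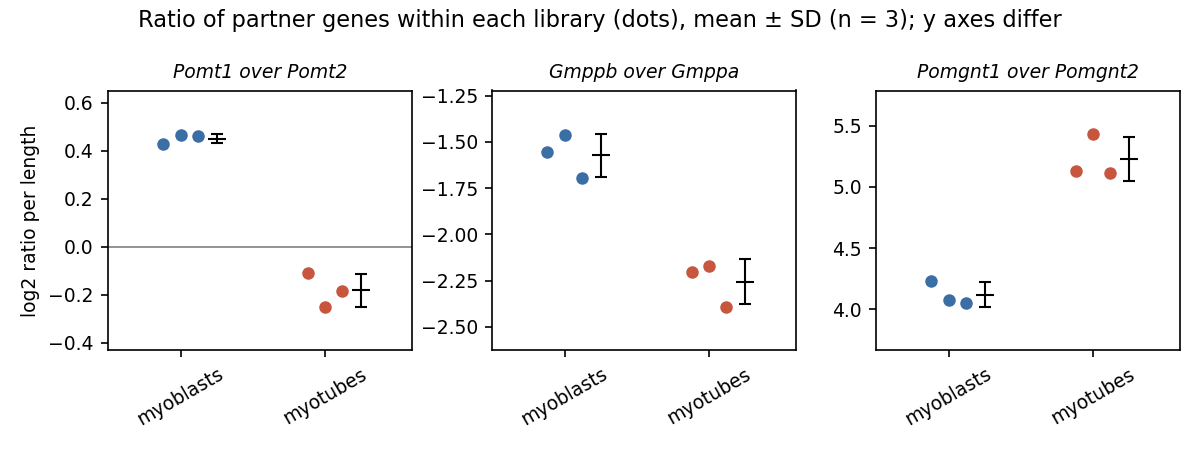
Log2 ratio of partner genes per length (y axes differ between panels) in the 3 myoblast (blue) and 3 myotube (red) libraries, with mean ± SD. The groups do not overlap in any panel; the ratio is lower in myotubes for Pomt1 over Pomt2 and Gmppb over Gmppa and higher for Pomgnt1 over Pomgnt2, and p = 0.1 in each exact permutation test.

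The other enzymes of the matriglycan route also went both ways. Of 9 such genes 8 were tested, of which 5 were called higher and 2 lower, with a median log2 change of 0.42 beside 0.02 over all genes tested. Since 40.2% of all genes tested were called higher and 39.2% lower, calls in both directions are common and no result about this list. B3galnt2, which extends the core M3 sugar, and Rxylt1, which adds the xylose that B4GAT1 uses, rose by 0.74 and 0.55 (SE 0.06 and 0.07). Pomk, the kinase that phosphorylates the core M3 mannose, was not called (log2 change -0.15, 95% interval -0.35 to 0.04), except with scaling by total counts (adjusted p = 0.00589). Rxylt1 and B4gat1, which act one after the other, were both called higher, also in each of the 14 alternatives.

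Mannose donor supply, the setting of Gmppb, was called in both directions as well: of 12 other genes 5 were called higher, 5 lower and 2 neither, with a median log2 change of 0.08. This is near the 40.2% called higher and 39.2% called lower over all genes tested, so the count is no result about the list. Mpi, which makes mannose-6-phosphate from fructose-6-phosphate, rose from 23.9 ± 1.78 to 108 ± 4.93 CPM (log2 change 2.18, SE 0.07). Dpm1, the catalytic subunit of dolichol-phosphate mannose synthase, rose by 1.46 (SE 0.07). Mpdu1, needed for the use of dolichol-linked mannose, and Srd5a3, the polyprenol reductase of dolichol synthesis, both fell, with log2 changes of -1.11 and -1.10 (SE 0.09 and 0.11). Dolk and Dhdds, of dolichol phosphate synthesis, were not called, but Dhdds was called lower with scaling by total counts (log2 change -0.16, adjusted p = 0.0160).

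**Figure D5:**
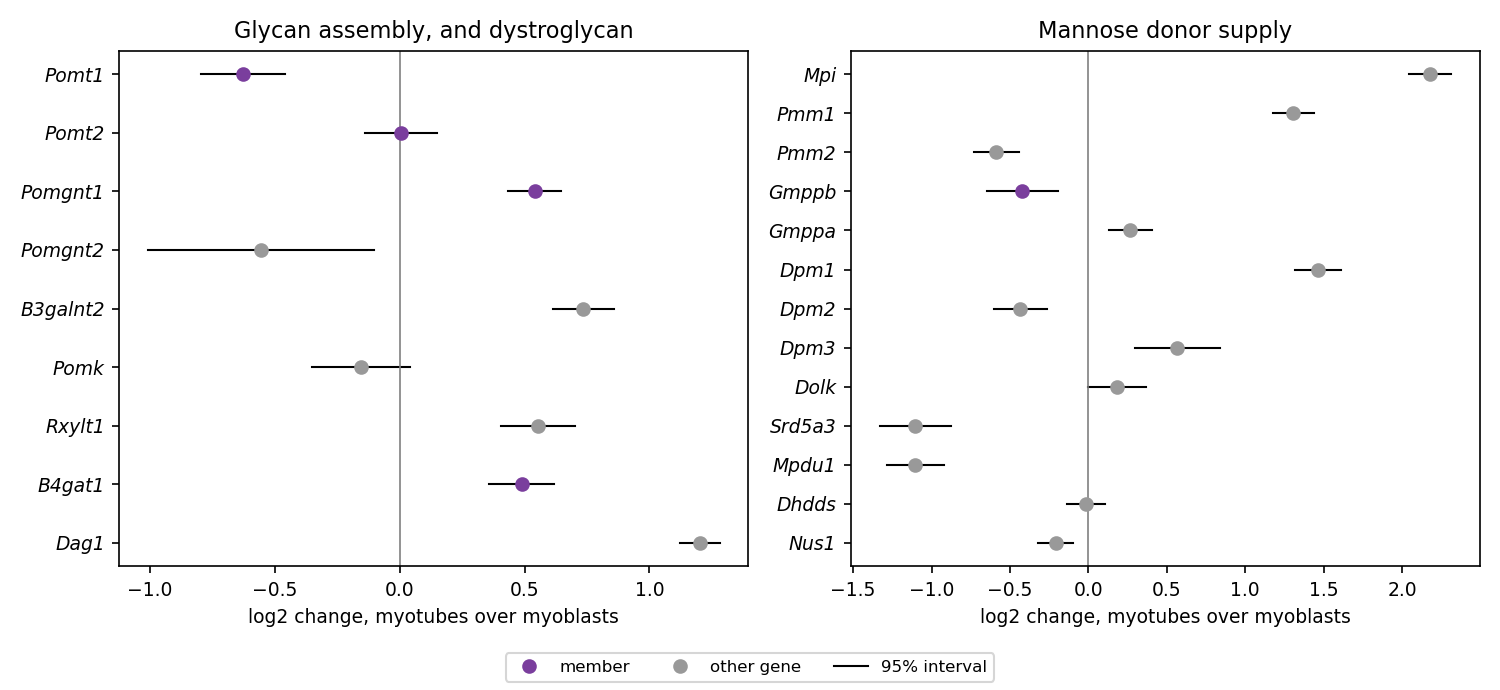
Log2 change (x axis, myotubes over myoblasts) with its 95% interval for genes of glycan assembly with dystroglycan (left) and of mannose donor supply (right), members in purple. Pomt1 and Pomgnt2 lie left of 0 and B3galnt2 and Dag1 on its right at 0.74 and 1.20, and the right panel spans Mpdu1 at -1.11 to Mpi at 2.18.

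The RNA of the acceptor protein changed more than that of any member. Dag1, the gene of dystroglycan, had 270, 268 and 267 CPM in myoblasts and 592, 631 and 628 CPM in myotubes, and its log2 change was 1.20 (SE 0.04, adjusted p = 1.08e-19 by edgeR), against 0.54 for Pomgnt1, the member that rose most. Of the 10 tested genes of dystroglycan and its laminin-G ligands 8 were called higher and 2 lower, with a median of 1.28. Over all genes tested 40.2% were called higher and 39.2% lower, and the difference of this list from those shares was not tested. Slit1 had 0 counts in the myoblast group and 85 in the myotube group, at least 43.2-fold higher than the level of 3 counts over the myoblast group. Lama4 rose by 4.82 (SE 0.33) from only 9 counts in the myoblast group. Lama5 and Slit2 fell by 0.31 and 0.48. Hspg2, perlecan, named after its values were seen, had the smallest change of these genes, 0.10 (adjusted p = 0.0271 by edgeR), and is among the 8 called higher. Its call was lost in 5 of 14 alternatives: with total counts (log2 change -0.0471, adjusted p = 0.278), with no filter (adjusted p = 0.215), without myoblast library 1 or 3 (adjusted p = 0.0918 or 0.222) and without myotube library 2 (adjusted p = 0.123), and the adjusted p over all 14 went from 0.00738 to 0.278. Nrxn2, Egflam and Slit3 were among those too low to be tested.

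Of 8 tested genes that supply the UDP-sugars 2 were called higher and 4 lower (40.2% and 39.2% of all genes tested), with a median of -0.15. Ugp2, which makes UDP-glucose, and Gfpt1, of hexosamine synthesis, rose by 0.69 and 0.30, and Ugdh, which makes the UDP-glucuronate that B4GAT1 uses, fell from 279 ± 5.43 to 113 ± 5.36 CPM (log2 change -1.31, SE 0.04). The nucleotide-sugar transporter gene Slc35b4 fell by 1.297. Slc35d1 and Uap1 were not called, except as lower with scaling by total counts (adjusted p = 0.0380 and 0.0133), and Gfpt2 was not tested. The lower calls of this list were 3 to 6 over the alternatives, 6 with total counts. Of 5 tested genes of other O-mannosyl glycans 1 was called higher and 3 lower (again 40.2% and 39.2% of all genes tested), with a median of -0.58. Tmtc2 rose by 1.0 (SE 0.18), and Tmtc3 and Tmtc4, of the separate family that mannosylates cadherins, fell by 0.89 and 0.76 (SE 0.06 and 0.10). B3gat2 was not called, except as lower without myotube library 3 (adjusted p = 0.0224). Mgat5b, B3gat1, Chst10 and Tmtc1 were too low to be tested.

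For each member the genes with the most similar profile were found as those with the smallest root-mean-square difference of centred log2(CPM + 1) over the 6 libraries, among 11924 genes. For Pomt1 they were Atxn7 and Srbd1 (0.0191 and 0.0249), for Pomt2 Cacybp and Cnot10 (0.0228 and 0.0278), for Pomgnt1 Ric8a and Fam118b (0.0235 and 0.0262), for B4gat1 Gpcpd1 and Lamtor5 (0.0191 and 0.0219) and for Gmppb Clca3b and Foxk1 (0.0457 and 0.0575). Among the members, Pomgnt1 and B4gat1 were the closest pair, at 0.0504, and Pomt1 and Pomgnt1 the farthest apart, at 0.575. With 2 groups and shared libraries many genes have such profiles, and by Pearson correlation only 1 of the 10 names was kept.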

How the data were processed

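Poly(A) RNA libraries of 3 myoblast and 3 myotube samples were analysed. The deposited values are unnormalised read counts by Entrez ID and symbol. The submitters' processing notes name fastp, STAR, featureCounts and mm10, without versions, strand setting or the handling of reads with several matches. Sample titles gave the groups and the match to the columns.

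Counts were tested with edgeR 4.0.16 in R 4.3.3: filterByExpr (minimum count 10, minimum total 15) kept 12800 genes, which hold at least 99.863% of each library. TMM scaling gave factors of 0.949 to 1.055, and the robust quasi-likelihood F test was fitted to all genes, with Benjamini-Hochberg adjusted p under 0.05 as a call. SE is the absolute log2 change over the square root of F, and the 95% interval uses the fit's degrees of freedom. CPM are after TMM. The 1049 genes without a symbol, kept under their ID, held 0.212 to 0.257% of counts. Lengths and exon overlaps come from GENCODE M21 (GRCm38), for 21572 genes matched by Entrez ID. Copies were searched as 50-base windows. Replicate pairs were neither identical nor within counting noise of each other (chi-square per degree of freedom 1.37 to 3.33). Each library was treated as 1 sample, though these values cannot show that the libraries came from separate cultures. The procedure was also run on simulated counts in which far fewer genes changed than here, so that run does not test the scaling between groups.

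The members and lists were chosen with earlier results of these data known. Named, besides the members, are Dag1, the ratio partners Pomt2, Gmppa and Pomgnt2, the 2 largest called changes in each direction of each list (mean level 1 CPM or more), neighbours within 5000 bases, the 2 most similar genes per member, and uncalled or untested list genes. Chosen after their values were seen were Lurap1 as a further overlapping gene, B3galnt2 and Rxylt1 as further route enzymes, and Hspg2. Other settings tried were total counts, size factors of DESeq2 1.42.0, its Wald test, limma-voom (limma 3.58.1), no filter, 1 CPM in at least 3 libraries, a replicate block, thinning to the smallest library, leaving out each library, total exon length, a pseudocount of 0.5 for the ratios, and an offset of 0.25 or a correlation for the likeness. Some genes of the lists are counted but not reported here by name.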

Additional observations from a re-analysis of the deposited data

How the results depend on the processing

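Pomt1, Pomgnt1, B4gat1 and Gmppb kept direction and call in all 14 alternatives, with log2 changes of -0.77 to -0.57, 0.39 to 0.58, 0.34 to 0.53 and -0.57 to -0.33. Pomt2 passed in none; its log2 change was -0.14 with total counts and -0.0418 with no filter, and -0.0532 to 0.0331 with 1 library left out (-0.0335 without myoblast library 1, -0.0532 without myotube library 3). Over all genes, total counts gave 4269 higher and 5935 lower in place of 5146 and 5024, and shifted the median by over 0.1. Counts of lists that moved by over 1.5 times were the lower calls of the other matriglycan enzymes, 1 in the DESeq2 Wald test and 1 to 2 with 1 library left out, where Pomgnt2 lost its call, and those of other O-mannosyl glycans, 3 to 5 with 1 library left out (5 without myotube library 3). Smaller moves were frequent: total counts gave 3 lower calls of the other matriglycan enzymes, 4 higher and 6 lower of mannose supply, 6 lower of UDP-sugar supply and 7 higher of the substrate and ligands. With no filter the UDP-sugar list had 3 higher calls. With total exon length the level over all libraries was 4.70 for Pomt1, 5.14 for Pomt2 and 21.6 CPM per kb for Pomgnt1. The correlation kept 1 of the 10 similar genes. Uncalled or weakly called genes turned sign: Cacybp (-0.14 with total counts, -0.0437 with no filter, -0.0426 to 0.0275 with 1 library left out), Cnot10 (0.0222 thinned, -0.0725 to 0.00828), Dhdds (-0.0333 to 0.00282), Uap1 (0.0238 thinned, -0.0543 to 0.0156) and Hspg2 (-0.0471 with total counts). The cause of these moves was not tested.

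The labels do not say that a replicate number marks a shared culture, and deviations of same-numbered libraries had correlations of -0.00844, 0.00179 and -0.00386. With the number as a replicate block the log2 changes were -0.63 for Pomt1, 0.00 for Pomt2, 0.54 for Pomgnt1, 0.49 for B4gat1 and -0.41 for Gmppb, the counts 5142 higher and 5019 lower, and the 3 ratio differences -0.63, -0.68 and 1.11, with p = 0.25 in an exact sign-flip test, the smallest p that 3 pairs allow. Among the members Gmppb had the fewest counts and the largest SE (0.11), and these intervals cover the spread of 3 libraries only.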
